A study of Mus musculus with 9 samples.

Results

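Vesicles that carry proteins between the endoplasmic reticulum (ER) and the Golgi are the subject here: 36 genes for the COPII coat, the COPI coat, the cargo receptors and the regulators and SNAREs of this route, out of 25860 genes in the count table. The members were taken from a fixed list of gene symbols. Of the 36, 35 were found by symbol, and Mia3, which the table lists under a clone name, was found by its Ensembl identifier (ENSMUSG00000056050). The cells were cultured from the calvaria (skull cap) of mouse pups and carried Osx1-Cre, a Cre transgene under the osterix (Sp7) promoter, which is active in cells committed to the osteoblast lineage. There were 5 libraries with the genotype IRE1KO and 4 with the genotype WT. In both groups the Osx1-Cre cells were sorted by flow cytometry out of cultures kept with 10% serum, plated, and taken for RNA at 90% confluence. A library came from a pool of 3 to 5 pups, 2 to 4 days old, and the labels call each pool 1 biological replicate. The labels do not name the Ern1 allele, the strain, the sex or the litters, and they do not say whether Cre was also present in every WT pup.

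COPII coats form at ER exit sites and carry newly made proteins towards the Golgi, and COPI coats carry escaped ER residents and recycling receptors back. Cells of the bone lineage depend on the forward route because they export large amounts of procollagen, whose rigid trimers are longer than an ordinary COPII vesicle. IRE1, the product of Ern1, is an ER stress sensor that splices Xbp1 mRNA, and the resulting factor XBP1s is known to raise many genes of the secretory pathway. The comparison of IRE1KO with WT therefore asks whether transcripts of the transport machinery differ when IRE1 is lost.

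Libraries held 18784636 to 22028075 counts, of which the 36 members took 0.720% to 0.751% in IRE1KO and 0.685% to 0.770% in WT. Ern1 itself was at 49.8 to 55.8 CPM (the library-size-scaled read count, with TMM factors) in IRE1KO and at 41.5 to 54.2 CPM in WT (log2 fold change 0.17 ± 0.076 SE, adjusted p = 0.306, edgeR). Without WT library 1, the omission with the most genes called, it passed as higher in IRE1KO (log2 fold change 0.24, adjusted p = 0.0467, edgeR). It passed in none of the other 8 fits that left out 1 library. That count covers the whole gene and does not show a loss of some exons, so it is no check of the genotype. Lineage markers were partly present: Runx2 averaged 67.9 and 66.9 CPM and Sp7 18.6 and 18.95 CPM in IRE1KO and WT, while Bglap and Dmp1, markers of mature osteoblasts and osteocytes, stayed below 0.2 and 2 CPM in every library. Spp1 and Ibsp, matrix proteins of bone, averaged 845.5 and 0.546 CPM in IRE1KO, against 1448 and 2.29 CPM in WT (adjusted p = 0.205 and 0.152, edgeR), with unadjusted p under 0.05 for both. WT library 4 stood apart on the first principal component, at 50.4 against -21.6 to 12.6 for the other libraries. The members' calls, signs of fold change and counts at an unadjusted p are given with and without it. Counts of genes without overlap, calls of cell type markers and unadjusted counts of other gene lists are given only with it.

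No transport gene passed the test between the genotypes. In edgeR's quasi-likelihood fit, with p-values adjusted over all genes (Benjamini-Hochberg) and a threshold of 0.05, 0 of 36 members passed, against 0.634% of 13712 tested genes (0.255% higher and 0.379% lower). At an unadjusted p under 0.05, 2 members were higher, Kdelr3 and Sec13, which is 5.56% of the list against 16.5% of all tested genes (7.14% higher and 9.36% lower). DESeq2 also called 0 of 36, with 3.77% of all genes called, and 3 members had an unadjusted p under 0.05, against 13.6% of genes. All 36 members passed the filter on low counts, and their lowest count in any library was 605 reads, for Bet1.

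The differences were small as well as uncalled. Fold changes of IRE1KO over WT ran from 0.952 for Sec24c to 1.154 for Kdelr3, so that 36 of 36 members lay within 1.2-fold, against 82.2% of all tested genes and 94.2% of the 6140 tested genes in the same range of mean CPM. For 33 members the whole 95% interval lay within 1.2-fold in either direction. The exceptions were Kdelr3, Mcfd2 and Kdelr2, whose upper bounds were 1.279-, 1.318- and 1.202-fold, and the lowest bound was 0.872-fold for Kdelr1. The median log2 fold change was 0.039 over the members, -0.0050 over all tested genes and 0.016 over those in the same CPM range. A positive fold change was seen in 27 of 36 members (75%), against 48.4% of all tested genes and 56.6% of those in the same CPM range. For 0 of 36 members did the 5 IRE1KO libraries lie wholly above or wholly below the 4 WT libraries, against 3.65% of tested genes that lay above and 3.28% that lay below. In bulk libraries, a smaller share of a cell type and less RNA per cell cannot be told apart.

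**Figure D1:**
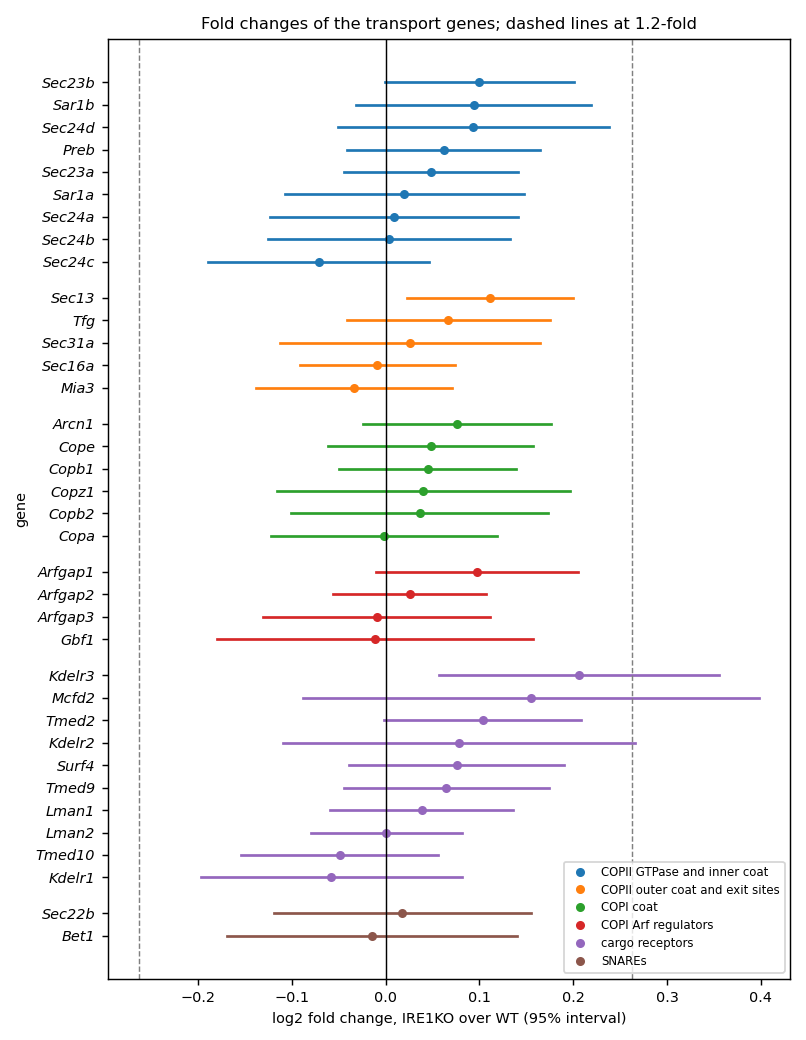
Log2 fold change of each transport gene, IRE1KO over WT, with its 95% interval, grouped by role; dashed lines mark 1.2-fold. The intervals of Kdelr3 and Sec13 lie above 0, and those of Kdelr3, Mcfd2 and Kdelr2 cross the upper dashed line.

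Promoters of several members carry the DNA letters that XBP1s and related factors bind, which is why they are shown before the values. RefSeq promoters (GRCm38.p6, 250 bases before to 50 bases after the start) were matched for 32 of 36 members, all but Arcn1, Kdelr2, Lman1 and Tmed2. The core of the unfolded protein response element, TGACGTGG or its reverse complement CCACGTCA, was in 6 of the 32 (18.8%), against 0.714% of 27025 genes with a promoter in the table and 1.08% of the 9717 tested genes among them. Its letters TGACGT are also the core bound by CREB and ATF factors. In each of the 6 it began between 30 bases before and 6 bases after the start. Stretches of 50 bases on the gene's strand follow, with the core in capitals.
Kdelr3, chr15:79516344-79516393 (+): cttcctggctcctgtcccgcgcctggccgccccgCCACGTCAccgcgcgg
Sec24d, chr3:123267436-123267485 (+): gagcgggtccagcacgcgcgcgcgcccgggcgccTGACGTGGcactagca
Sec23a, chr12:59011996-59012045 (-): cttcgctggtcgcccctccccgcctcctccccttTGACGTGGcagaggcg
Copb1, chr7:114254693-114254742 (-): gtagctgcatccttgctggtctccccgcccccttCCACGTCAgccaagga
Copb2, chr9:98563690-98563739 (+): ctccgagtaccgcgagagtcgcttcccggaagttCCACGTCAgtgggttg
Gbf1, chr19:46152512-46152561 (+): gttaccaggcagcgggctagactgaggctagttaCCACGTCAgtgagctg

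The longer ER stress response elements ERSE and ERSE-II were searched on both strands too and were in 0 of the 32 member promoters, against 0.137% and 0.0444% of all genes in the table. They share the letters CCACG with the core above. The 6 genes with the core had log2 fold changes from -0.012 for Gbf1 to 0.21 for Kdelr3 with a median of 0.047, and the 26 matched members without it had a median of 0.023. Of all 105 tested genes with the core, 1 passed and the median was 0.027. Of the 9717 tested genes in the promoter table, 26 passed as higher and 38 as lower, and the median was -0.0020. At an unadjusted p under 0.05 (edgeR) the shares were 15.2% of genes with the core and 16.8% of those in the table. A match of letters is a description of the sequence and does not show that a factor binds there.

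Among the genes of the inner COPII coat, 8 of 9 fold changes were positive and 0 of 9 passed. The small GTPases Sar1a and Sar1b start the coat when Preb, their exchange factor, loads them with GTP at the ER. Sar1b was at 58.2, 57.7, 56.5, 55.8 and 49.6 CPM in IRE1KO libraries 1 to 5, against 54.4, 53.6, 51.4 and 48.8 CPM in WT libraries 1 to 4. IRE1KO library 5 lay among the WT libraries, and the adjusted p was 0.429 (edgeR). Sar1a averaged 289.6 ± 9.74 CPM in IRE1KO (SD, n = 5), against 285.7 ± 23.2 CPM in WT (SD, n = 4). Preb averaged 64.6 ± 2.92 CPM in IRE1KO, against 61.9 ± 2.60 CPM in WT.

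Sec23 proteins bind Sar1 and stimulate its GTPase. Loss-of-function variants of SEC23A in humans cause a skull and suture disorder, and SEC23B variants cause a red cell disorder. Sec23a was at 339.2, 349.2, 321.6, 327.8 and 322.7 CPM in IRE1KO, against 333.1, 325.6, 314.0 and 311.8 CPM in WT. IRE1KO libraries 1 and 2 lay above every WT library and WT libraries 3 and 4 below every IRE1KO library, and the rest overlapped (adjusted p = 0.594, edgeR). Sec23b was at 114.7, 117.6, 110.5, 117.3 and 111.9 CPM in IRE1KO, against 111.7, 110.1, 107.0 and 98.3 CPM in WT. WT library 4 was the lowest of the 9 for Sec23b, and the fold change was 1.07 with a 95% interval of 0.9994 to 1.149 (adjusted p = 0.306, edgeR).

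Sec24 proteins select the cargo, and variants of SEC24D in humans cause a form of brittle bone disease. Sec24d was at 367.6, 389.1, 359.0, 378.2 and 360.5 CPM in IRE1KO, against 307.8, 339.6, 356.0 and 386.9 CPM in WT. The IRE1KO libraries lay close together, while WT ran from the lowest value of the 9 in library 1 to nearly the highest in library 4 (adjusted p = 0.498, edgeR). Sec24c had the lowest fold change of the 36 members, at 184.4 ± 4.44 CPM in IRE1KO, against 193.8 ± 14.6 CPM in WT (adjusted p = 0.526, edgeR). Sec24a averaged 96.7 and 96.1 CPM and Sec24b 137.9 and 137.6 CPM in IRE1KO and WT. Sec24a and Sar1b are head-to-head neighbours on chromosome 11, 54.6 Mb from Ern1.

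Of the outer coat and the exit sites, 5 members were tested and none passed, with Sec13 having the second smallest p of all members. Sec13, which forms the cage with Sec31a and is also a nuclear pore subunit, was at 137.1, 141.4, 134.9, 141.5 and 128.7 CPM in IRE1KO, against 130.4, 125.3, 127.7 and 122.9 CPM in WT. Only IRE1KO library 5 lay inside the WT range, and the log2 fold change was 0.11 ± 0.039 SE (adjusted p = 0.215, edgeR). Its partner Sec31a averaged 536.5 ± 14.6 CPM in IRE1KO, against 526.9 ± 47.8 CPM in WT.

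Mia3, also called TANGO1, spans the ER membrane at exit sites and helps load procollagen. It was at 214.9, 223.4, 214.1, 203.1 and 216.2 CPM in IRE1KO, against 211.4, 214.3, 214.3 and 237.6 CPM in WT. WT libraries 1 to 3 lay within the IRE1KO range and WT library 4 above it (log2 fold change -0.034 ± 0.047 SE, adjusted p = 0.754, edgeR). Sec16a, the scaffold of exit sites, averaged 226.0 ± 7.38 CPM in IRE1KO, against 227.4 ± 4.37 CPM in WT. Tfg, which clusters COPII carriers at those sites, averaged 133.9 ± 5.59 CPM in IRE1KO, against 127.9 ± 6.91 CPM in WT.

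The COPI coat, a stable complex called coatomer, had 6 members and none passed. Arcn1, the delta subunit, was at 270.0, 280.1, 259.3, 260.5 and 269.1 CPM in IRE1KO, against 250.6, 243.7, 249.2 and 272.5 CPM in WT. WT library 4 lay among the IRE1KO libraries and the other WT libraries below all of them (adjusted p = 0.422, edgeR). Copb2, the beta-prime subunit that reads dilysine signals on cargo, was at 456.8 to 483.4 CPM in IRE1KO, against 438.0, 437.2, 440.1 and 523.5 CPM in WT, with WT libraries 1 to 3 below every IRE1KO library and WT library 4 above them. Copa, the alpha subunit, averaged 838.8 ± 15.96 CPM in IRE1KO, against 839.8 ± 61.4 CPM in WT. Copb1, Cope and Copz1, the beta, epsilon and zeta subunits, had fold changes of 1.03, 1.03 and 1.03.

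COPI assembly is switched by Arf1, which Gbf1 activates and the Arfgap proteins turn off. Arfgap1 was at 121.3, 116.0, 114.4, 119.4 and 112.8 CPM in IRE1KO, against 115.3, 101.0, 106.1 and 114.3 CPM in WT. WT libraries 2 and 3 lay below every IRE1KO library and the other WT libraries among them (adjusted p = 0.342, edgeR). Gbf1 averaged 250.7 ± 9.44 CPM in IRE1KO, against 252.8 ± 29.9 CPM in WT, with WT libraries spread from 218.6 to 285.1 CPM. Arfgap2 and Arfgap3 had fold changes of 1.02 and 0.993.

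Cargo receptors held the largest fold change of the list. The KDEL receptors capture chaperones that have leaked to the Golgi and return them in COPI vesicles. Kdelr3 was at 115.7, 122.7, 106.4, 117.2 and 113.4 CPM in IRE1KO, against 96.3, 95.5, 93.2 and 113.9 CPM in WT. WT library 4 lay among the IRE1KO libraries, and the other WT libraries lay below all 5. The log2 fold change was 0.21 ± 0.066 SE with an adjusted p of 0.189 in edgeR. Without WT library 4, the highest of WT for Kdelr3, Kdelr3 rose 1.21-fold (log2 fold change 0.28 ± 0.046 SE, adjusted p = 0.0216, edgeR). In that fit 2.9% of all tested genes passed. Kdelr3 was the only member that passed in any of the 9 fits that left out 1 library. Its adjusted p ranged from 0.0216 to 0.410 over the 9 (edgeR).

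The sequence before the Kdelr3 start, chr15:79516158-79516407 (GRCm38.p6, plus strand), is given in full because this is the member that passed in a fit, with the core in capitals.
Kdelr3 upstream: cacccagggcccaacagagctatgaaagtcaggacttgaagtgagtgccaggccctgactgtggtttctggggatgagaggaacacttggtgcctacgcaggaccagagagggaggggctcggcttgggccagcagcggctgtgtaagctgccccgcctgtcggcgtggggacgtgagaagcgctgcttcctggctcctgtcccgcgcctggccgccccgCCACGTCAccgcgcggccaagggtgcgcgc

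Kdelr2, the most abundant KDEL receptor here, was at 278.7, 284.1, 248.5, 271.4 and 273.8 CPM in IRE1KO, against 236.3, 230.9, 254.3 and 306.6 CPM in WT. WT library 4 was the highest of the 9 and WT libraries 1 and 2 the lowest (adjusted p = 0.672, edgeR). Kdelr1 had a negative fold change, at 145.1 ± 3.98 CPM in IRE1KO, against 151.1 ± 14.6 CPM in WT (adjusted p = 0.672, edgeR). Per length, Kdelr3 took 24.9% to 26.0% of the KDEL receptor transcripts in IRE1KO and 21.9% to 24.2% in WT. Kdelr1 took 27.3% to 29.4% in IRE1KO and 29.92% to 32.02% in WT. For these shares the groups did not overlap, WT library 4 included. They overlapped for Kdelr2 and for every share in the other families examined. Shares of the same total are not independent, since a higher share of one receptor lowers the others. No test was made of them.

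**Figure D2:**
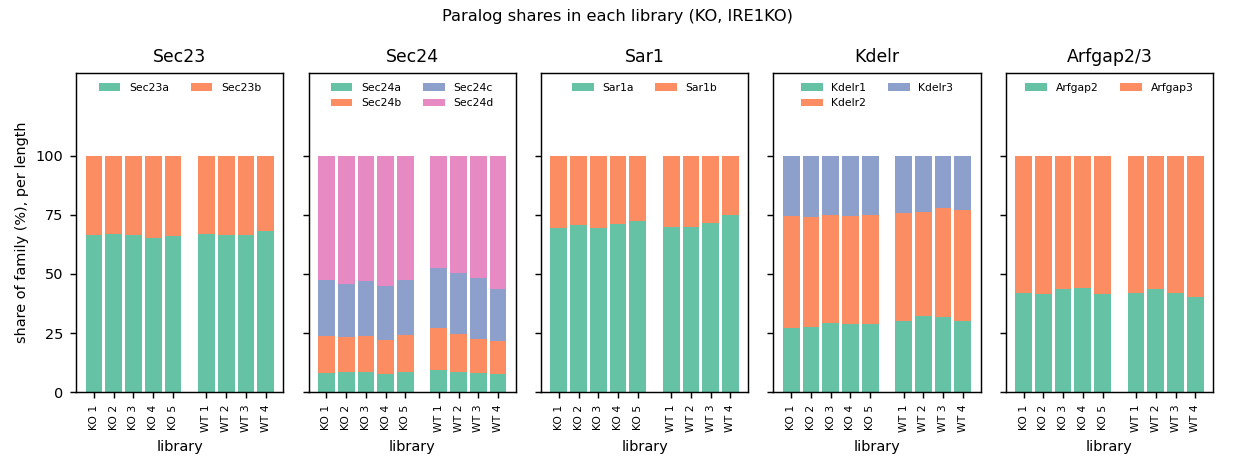
Share of each paralog in its family in every library, from CPM divided by the length of the principal transcript (bars sum to 100%). Within the KDEL receptors, Kdelr3 was at 24.9% to 26.0% in IRE1KO and 21.9% to 24.2% in WT.

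Lman1 is a lectin that, with its partner Mcfd2, exports glycoproteins such as clotting factors. Mcfd2 was at 99.97, 107.0, 96.8, 98.5 and 96.8 CPM in IRE1KO, against 101.8, 102.8, 85.1 and 68.9 CPM in WT. WT libraries 1 and 2 lay among the IRE1KO libraries and WT libraries 3 and 4 below all of them, and its SD was 4.21% of the mean in IRE1KO and 17.9% in WT, the widest of the 36 members in WT. Its fold change was 1.11 with a 95% interval of 0.9405 to 1.318 (adjusted p = 0.508, edgeR), and without WT library 4 it was 1.03 (log2 fold change 0.048 ± 0.064 SE, adjusted p = 0.729, edgeR). Lman1 averaged 291.7 ± 11.8 CPM in IRE1KO, against 284.0 ± 9.84 CPM in WT. In WT library 4, where Mcfd2 was lowest, Lman1 was at 297.7 CPM, the highest of WT.

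Surf4, a receptor with a broad range of soluble cargo, was at 268.7, 294.5, 260.3, 271.2 and 278.3 CPM in IRE1KO, against 259.0, 254.8, 247.9 and 280.7 CPM in WT. WT libraries 1 to 3 lay below all IRE1KO libraries (adjusted p = 0.490, edgeR). Tmed2, Tmed9 and Tmed10 belong to a family of small receptors that travel in both coats. Tmed2 was at 38.3, 41.0, 37.5, 38.7 and 36.1 CPM in IRE1KO, against 35.2, 34.2, 37.3 and 35.8 CPM in WT. A single library of each group crossed into the other, and the fold change was 1.07 with a 95% interval of 0.9989 to 1.155 (adjusted p = 0.307, edgeR). Tmed9 had a fold change of 1.05, Tmed10 of 0.967 and the lectin Lman2 of 1.00. The SNAREs Sec22b and Bet1, which drive fusion on this route, had fold changes of 1.01 and 0.990.

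**Figure D3:**
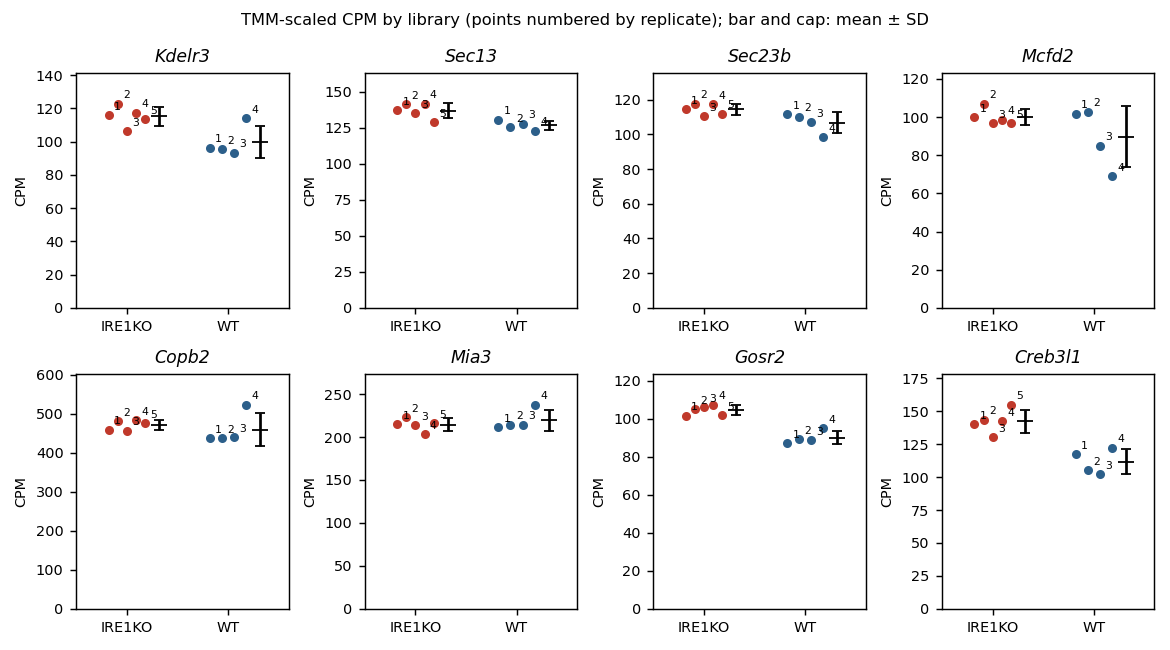
TMM-scaled CPM in each IRE1KO and WT library, numbered by replicate, with mean and SD, for 6 transport genes and for Gosr2 and Creb3l1 of the wider pathway. WT library 4 is high for Kdelr3, Copb2 and Mia3 and low for Sec23b and Mcfd2, and the groups do not overlap for Gosr2 and Creb3l1.

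Which paralog leads was much the same in every library. Per length of the principal transcript, Sec24d made up 52.4% to 55.0% of Sec24 in IRE1KO and 47.4% to 56.3% in WT, and Sec24a was the least abundant at 7.59% to 8.59% in IRE1KO and 7.66% to 9.49% in WT. Sec23a took 66.2% ± 0.545 of Sec23 in IRE1KO (SD, n = 5) and 67.1% ± 0.788 in WT (SD, n = 4). Sar1a took 69.3% to 72.3% of Sar1 in IRE1KO and 69.7% to 75.1% in WT. Arfgap3 exceeded Arfgap2, with 56.0% to 58.7% of their sum in IRE1KO and 56.3% to 59.8% in WT. Across the whole list, the level per kilobase over all libraries ran from 181.6 CPM per kilobase for Copa and 152.8 for Copb2 to 14.7 for Sec24a and 10.1 for Preb. With the union of all annotated exons as length, Kdelr2 led, Copa came next, and Sec24a and Preb remained last. Preb shares 1575 exonic bases with Abhd1, and Arfgap2 shares 1380 with 1110051M20Rik, each on the other strand. The part of such reads in the levels of Preb and Arfgap2 was not tested.

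The members varied more among WT than among IRE1KO libraries. The median SD of log2 CPM was 0.050 in IRE1KO and 0.091 in WT, and WT was wider for 28 of 36 members (77.8%), against 86.1% of tested genes in the same CPM range. WT library 4 exceeded all other libraries for 15 members and lay below all others for 8. Those above included Copa, Copb1, Copb2 and Copz1 of coatomer, Sar1a, Sec31a, Mia3, Kdelr1, Kdelr2, Sec22b and Bet1. Those below were Sec23a, Sec23b, Sec24b, Sec24c, Sar1b, Preb, Sec13 and Mcfd2. The median of the COPI coat in WT library 4 was 0.10 above the mean of all libraries on the log2 scale, and that of the inner COPII coat and its GTPases was 0.11 below it. WT libraries 1 and 2 were the lowest of the 9 for 12 and 9 members, and IRE1KO library 2 was the highest for 10. The shares of all tested genes with such extremes were not counted. WT library 4 also stood apart over all tested genes on the first principal component. Whether its extremes are more frequent among the members than among all tested genes was not tested.

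**Figure D4:**
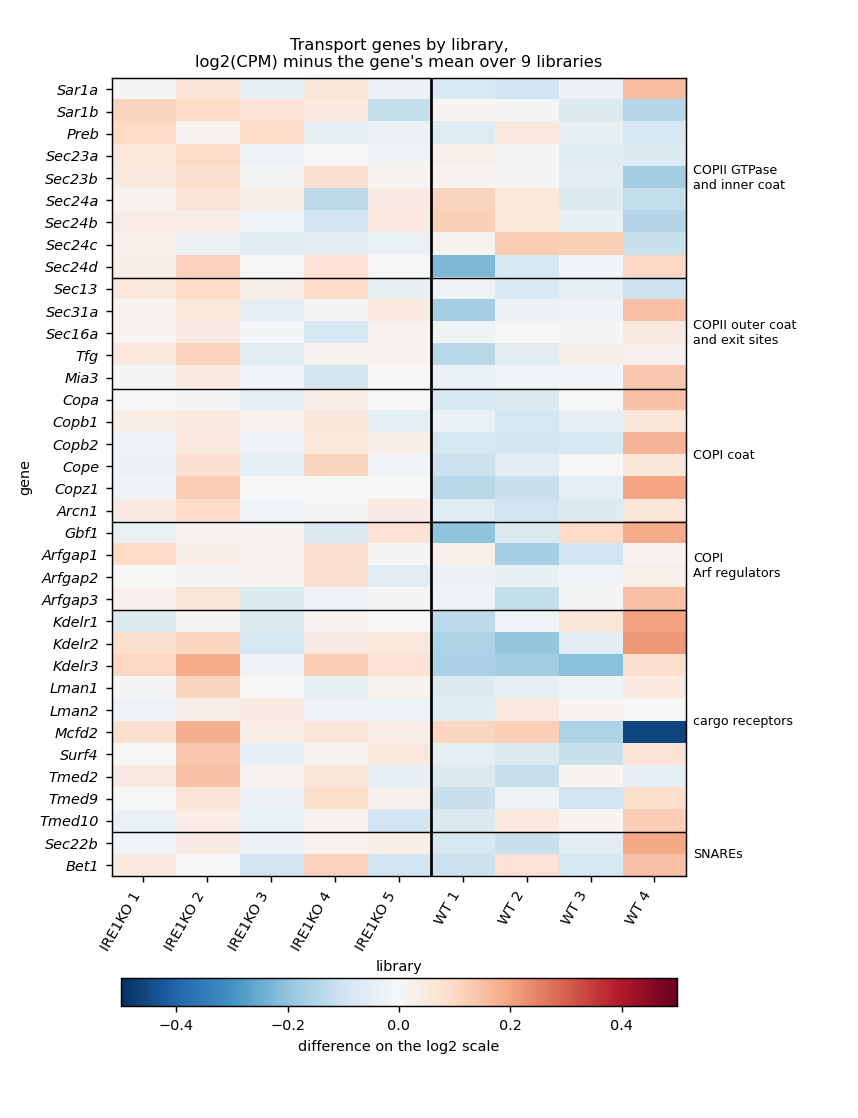
Log2 CPM of each transport gene minus its mean over the 9 libraries, with IRE1KO libraries left of WT libraries and genes grouped by role. WT library 4 is high for the COPI coat genes Copa, Copb1, Copb2 and Copz1 and low for Sec23b, Sec24b, Sec13 and Mcfd2.

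Without WT library 4, 32 of the 36 members (88.9%) had a positive fold change, against 49.3% of all tested genes. The median was 0.063, against -0.0024 over all tested genes. Genes in the same CPM range were not set apart in this fit. In that fit 12 members (33.3%) had an unadjusted p under 0.05, 11 higher and Sec24c lower, against 20.1% of all tested genes. At an adjusted p under 0.05, Kdelr3 alone passed in edgeR (1 of 36, or 2.78%), against 2.9% of all tested genes. After Kdelr3, the smallest p belonged to Kdelr2, with a fold change of 1.13 (adjusted p = 0.114, edgeR).

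Collagen and other abundant cargo had a like order of libraries. Col1a1, a chain of type I collagen, was at 21916 to 24834.5 CPM in IRE1KO, against 16903, 15462, 18114 and 31100.3 CPM in WT libraries 1 to 4. The median of 11 cargo genes was -0.0018 to 0.15 in IRE1KO and -0.21, -0.29, -0.22 and 0.37 in WT libraries 1 to 4, on the log2 scale relative to all libraries. The members' medians were -0.014 to 0.063 in IRE1KO and -0.067, -0.047, -0.036 and 0.061 in WT libraries 1 to 4. In both cases WT libraries 1 to 3 were below every IRE1KO library and WT library 4 was not. None of the 11 cargo genes passed in edgeR, against 0.634% of all tested genes, and 3 (27.3%) had an unadjusted p under 0.05, against 16.5%. These were Col5a1, at 3385 ± 142.6 CPM in IRE1KO, against 2704 ± 308.1 CPM in WT (adjusted p = 0.107), Sparc (log2 fold change 0.25 ± 0.079 SE) and Serpinh1, the collagen chaperone (0.20 ± 0.064 SE). Col12a1 came next, with a log2 fold change of 0.17 ± 0.081 SE. Col5a1, Sparc and Serpinh1 each passed without WT library 4 (adjusted p = 0.00857, 0.0302 and 0.0465, edgeR), against 2.9% of all tested genes. They passed in no other fit that left out 1 library, with adjusted p up to 0.289, 0.394 and 0.399 (edgeR). Col5a1 and Sparc passed in DESeq2 (adjusted p = 0.00234 and 0.0319), which called 3.77% of all genes.

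**Figure D5:**
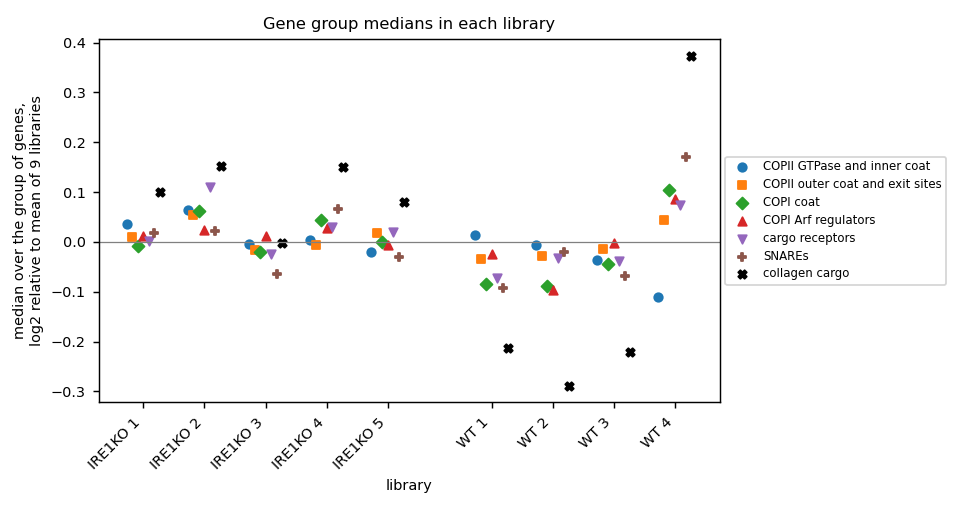
Median of each role group of transport genes and of 11 collagen cargo genes in every library, on the log2 scale relative to the gene's mean over the 9 libraries. In WT library 4 the cargo median is 0.37 and that of the COPI coat 0.10, while the inner COPII coat is at -0.11.

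Markers of other cell types also differed between the libraries. The 6 adipocyte markers summed to 43.5 to 53.5 CPM in IRE1KO, against 70.5 to 115.5 CPM in WT, and 3 of 4 tested fell, namely Fabp4, Plin4 and Lpl. All 4 were lower at an unadjusted p under 0.05 (edgeR). The 6 glial markers summed to 11.4 to 16.7 CPM in IRE1KO, against 19.2 to 71.4 CPM in WT, and 1 of 5 tested, Ngfr, fell. All 5 were lower at an unadjusted p under 0.05 (edgeR), with a median log2 fold change of -3.34. Of all tested genes, 0.379% fell and 9.36% were lower at an unadjusted p under 0.05 (edgeR). In both lists WT library 4 had the highest sum. Chondrocyte markers summed to 707.9 to 1400 CPM in IRE1KO, against 1355 to 1424 CPM in WT, macrophage markers to 119.2 to 268.4 and 68.9 to 244.8 CPM, and endothelial markers, of which 1 of 4 tested, Pecam1, fell, to 7.60 to 11.5 and 8.42 to 20.7 CPM. The 9 osteoblast lineage markers, mostly Col1a1 and Col1a2, summed to 36904 to 41006 CPM in IRE1KO, against 27495 to 54038 CPM in WT, and 0 of 7 tested passed. No marker was at 0 in all libraries, and Matn1 of the chondrocyte list was at 0 in all 5 IRE1KO libraries. The part of these cells in the members' values was not tested.

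In the wider pathway, 51 of 52 listed genes were tested, 1 rose and 0 fell, against 0.255% and 0.379% of all tested genes. Of the 51, 11 (21.6%) had an unadjusted p under 0.05, against 16.5% of all tested genes, and 9 had all IRE1KO libraries above WT and 2 below, against 3.65% and 3.28% of all tested genes. The gene that rose was Gosr2, a SNARE that acts with Sec22b and Bet1 in fusion at the Golgi. It was at 101.6, 105.2, 106.1, 107.4 and 102.0 CPM in IRE1KO, against 87.2, 89.3, 88.8 and 95.2 CPM in WT. Every IRE1KO library lay above every WT library, and the log2 fold change was 0.21 ± 0.038 SE (adjusted p = 0.0480, edgeR). Gosr2 lies on chromosome 11 from 103676849 to 103697898 (GRCm38), 2.70 Mb from Ern1. It passed in 2 of the 9 fits that left out 1 library, those without WT library 1 or 4, where its adjusted p ranged from 0.0153 to 0.149 over the 9 (edgeR).

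The next genes of the wider pathway did not pass with all libraries. Copg2, a gamma subunit of coatomer, was at 63.1 to 65.7 CPM in IRE1KO, against 70.2 to 78.2 CPM in WT, without overlap (log2 fold change -0.20 ± 0.038 SE, adjusted p = 0.0567, edgeR). Copg2 shares 912 exonic bases with Mest on the other strand, and Mest averaged 58.1 CPM in IRE1KO, against 108.9 CPM in WT. The strand setting of the counts is not given in the sources used here, and the part of Mest reads in the Copg2 value was not tested. The more abundant paralog Copg1 had a fold change of 1.03.

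Creb3l1, also called OASIS, is an ER-bound transcription factor that acts on collagen transcription in mouse osteoblasts. It was at 140.2, 143.5, 130.1, 142.6 and 155.0 CPM in IRE1KO, against 117.5, 105.1, 102.1 and 122.4 CPM in WT. All IRE1KO libraries lay above all WT libraries, with a log2 fold change of 0.35 ± 0.068 SE (adjusted p = 0.0605, edgeR). Its relative Creb3l2, which raises Sec23a in mouse chondrocytes, had a fold change of 0.962. Gorasp2, a Golgi stacking protein, averaged 241.0 ± 5.58 CPM in IRE1KO, against 215.9 ± 6.22 CPM in WT, again without overlap (adjusted p = 0.0845, edgeR). Without WT library 1, the omission with the most genes called, Copg2, Creb3l1 and Gorasp2 all passed (adjusted p = 0.00974, 0.0239 and 0.0441, edgeR). Without WT library 4, Copg2 and Creb3l1 passed (adjusted p = 0.0362 and 0.0201, edgeR), against 2.9% of all tested genes. All 3 passed in DESeq2 (adjusted p = 0.00102, 0.000609 and 0.000675), which called 3.77% of all genes.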

How the data were processed

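RNA was sequenced from 9 libraries, 5 IRE1KO and 4 WT, prepared and sequenced in 1 batch per the labels' protocols. The authors deposited raw counts, whole reads per gene without normalization. STAR, limma and mm10 are named per the submitters' processing notes, while no label or header used here names the counting program, its annotation or its strand setting. Libraries held 18784636 to 22028075 counts. The counting error of a gene depends on its own reads and is larger for members with fewer reads, down to 605 for Bet1.

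Counts were tested with edgeR 4.0.16 in R 4.3.3 (filterByExpr, TMM, robust quasi-likelihood, genotype as sole term), with p-values adjusted over 13712 genes at a threshold of 0.05. DESeq2 1.42.0, RLE scaling, no filter, a replicate block and the omission of each library were alternatives. CPM are TMM-scaled over the tested genes. The 95% intervals are per gene and unadjusted. Lengths and positions came from GENCODE M21 (GRCm38), using the longest APPRIS principal transcript. Tables and figures used Python 3.11.15 with pandas 2.3.3 and matplotlib 3.10.9. Of the steps, only the edgeR and DESeq2 fits were run on simulated counts, which held no outlying library. Protein sequences were not used here.

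Members and lists were chosen with earlier results of these data known. Values in every library are given for the 10 members with the smallest p and for Sec23a, Sec24d, Mia3, Sar1b, Kdelr3 and Sec13. Of the other pathway genes and the collagen cargo, genes that passed and the 4 with the smallest p per list are named. Kdelr2 and other members given by library, and Copg1, Creb3l2, Col1a1, Mest and the marker genes, were chosen after their values were seen.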

Additional observations from a re-analysis of the deposited data

Results flagged for a closer look

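In 88 groups of 4 or 5 libraries, 6 transport genes had a library whose gap to its neighbour filled most of the range. Chance flags about 1 in 20 groups, or 4.4 of 88. WT library 4 was high for Kdelr3, at 113.9 CPM against 93.2 to 96.3 CPM in the other WT libraries. It was also high for Mia3, at 237.6 CPM against 211.4 to 214.3 CPM, and for Copb2, at 523.5 CPM against 437.2 to 440.1 CPM. IRE1KO library 5 was low for Sar1b, at 49.6 CPM against 55.8 to 58.2 CPM in the other IRE1KO libraries. IRE1KO library 4 was low for Sec24a, at 88.0 CPM against 97.4 to 100.7 CPM. IRE1KO library 2 was high for Copz1, at 125.3 CPM against 113.3 to 115.2 CPM.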

How the results depend on the processing

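The count of all genes called was 87, and it was 45 without a filter, 582 in DESeq2, 0 with a replicate block (1596 at an unadjusted p under 0.05) and 2 to 1192 when 1 library was left out, lowest without IRE1KO library 2 and highest without WT library 1. The count of members called was 0 under every alternative except the omission of WT library 4, with a range of 0 to 1 over the omissions. Their median log2 fold change stayed between 0.023 and 0.063 over the omissions. Of 468 member values under 13 alternatives, 431 kept their direction and their side of the threshold. Another 36 changed sign, in 13 members whose log2 fold changes with all libraries ran from -0.058 for Kdelr1 to 0.026 for Sec31a. Copa was at 0.00040 without a filter and 0.00066 in DESeq2, and with the replicate block Sec24b was at -0.0058 and Bet1 at 0.0086. Over the omissions the log2 fold changes ranged from -0.052 to 0.039 for Arfgap3, -0.052 to 0.034 for Bet1, -0.029 to 0.049 for Copa, -0.076 to 0.051 for Gbf1, -0.11 to 0.0018 for Kdelr1, -0.019 to 0.016 for Lman2, -0.052 to 0.0064 for Mia3, -0.010 to 0.078 for Sar1a, -0.021 to 0.0089 for Sec16a, -0.018 to 0.091 for Sec22b, -0.028 to 0.048 for Sec24a, -0.042 to 0.045 for Sec24b and -0.023 to 0.084 for Sec31a. Gosr2 did not pass without a filter (adjusted p = 0.0547, edgeR) or with the replicate block (adjusted p = 0.227, edgeR). The causes were not tested. Deviations from the group means correlated across genes at 0.17, -0.23, -0.18 and 0.50 between libraries of equal replicate number, for numbers 1 to 4. WT libraries 1 and 4 correlated best with the IRE1KO library of their own number, and WT libraries 2 and 3 did not. These correlations cannot decide whether the libraries were paired. Whether the genotypes shared litters, sorting runs or culture days is unlabelled, so these cannot be told apart from genotype.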
